A study of Mus musculus with 9 samples.

Results

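The sarcomere and fiber-type genes are 45 mouse genes that encode the contractile apparatus of skeletal muscle, from the thick and thin filaments to the Z-disc and the M-band. They were picked by symbol from the gene expression table of tibia RNA, where all 45 were found among 18272 genes, and all 45 were among the 13960 genes that had enough counts to be tested. RNA was taken from the tibia of 3 mice in each of 3 groups, and 1 library was sequenced per mouse. All mice were female C57BL/6J, bought at 10 to 11 weeks of age. NGT mice had normal glucose tolerance and received citrate vehicle and then saline. T1D mice were made diabetic with a single injection of streptozotocin, which kills pancreatic beta cells, at 150 mg/kg, and then received saline. Lira mice had the same streptozotocin injection and then liraglutide, an agonist of the GLP-1 receptor, at 0.6 mg/kg/day. Streptozotocin is therefore shared by the T1D and Lira groups, and Lira was compared with a diabetic group and with a normal one. Treatment lasted 8 weeks, except that Lira mouse 3 is labelled with 9 weeks. The bones were cleaned of muscle and connective tissue before freezing. In spite of this, the 45 genes took 16.8, 22.2 and 23.9% of all counts in NGT mice 1 to 3, 14.3, 21.2 and 23.5% in T1D mice, and 21.7, 21.9 and 17.1% in Lira mice. The lowest shares were in NGT mouse 1, T1D mouse 1 and Lira mouse 3, and the ranges of the groups overlapped. The share was lower in the T1D mouse than in the NGT mouse of the same number in all 3 pairs, with a mean difference of -1.32 percentage points (exact two-sided p = 0.25 within the pairs, the smallest that 3 pairs allow, and exact permutation p = 0.6 without them). The pairing by number was inferred from these data and is not given by the labels. In bulk RNA, fewer muscle fibers and less RNA per fiber cannot be told apart.

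The sarcomere is the repeating unit of the muscle fiber, in which myosin heads of the thick filament pull on actin of the thin filament. Troponin and tropomyosin on the thin filament make this pull depend on calcium, and titin and nebulin set the length of the filaments. Many of these proteins come as a fast and a slow isoform from separate genes. Slow, oxidative fibers use Myh7, Myl2, Myl3, Tnnt1, Tnni1 and Tnnc1, whereas fast fibers use Myh2, Myh1 or Myh4 with Mylpf, Myl1, Tnnt3, Tnni2 and Tnnc2. The muscles around the mouse tibia are mostly fast, apart from the soleus, which is rich in slow fibers. Diabetes with insulin deficiency is known to cause muscle wasting, and the fiber types of a muscle can shift with its use and metabolic state.

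Promoters are shown for genes of the 9 fast and slow pairs on which the comparison of fiber types rests. RefSeq promoter windows (GRCm38.p6, 250 bases before to 50 after the start) were found for 35 of the 45 genes, with 41 windows in all. Below are the 150 bases just before the start, read 5′ to 3′ on the strand of the gene. They are shown for 3 fast genes (Myh4, Mylpf and Tnnc2), for 4 slow genes (Tnnc1, Tnnt1, Myl3 and Myoz2) and for Myh2. Of the 45 genes, only Myh2 had T1D and Lira mice that did not overlap. Of all genes, 3.74% were higher and 3.4% lower in Lira without overlap. Capitals mark matches, on either strand, to the TATA box TATAAA, the E-box CAGCTG, the MEF2 site or the CArG box. The MEF2 site and the TATA box are both rich in A and T and can share bases.
Myh4, chr11:67237662-67237811, plus strand: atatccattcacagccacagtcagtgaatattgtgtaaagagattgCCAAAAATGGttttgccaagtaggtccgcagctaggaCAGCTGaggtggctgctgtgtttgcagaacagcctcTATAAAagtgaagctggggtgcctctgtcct
Mylpf, chr7:127211458-127211607, plus strand: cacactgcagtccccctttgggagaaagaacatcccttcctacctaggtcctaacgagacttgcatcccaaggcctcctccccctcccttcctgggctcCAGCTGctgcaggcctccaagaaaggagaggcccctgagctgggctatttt
Tnnc2, chr2:164779735-164779884, minus strand: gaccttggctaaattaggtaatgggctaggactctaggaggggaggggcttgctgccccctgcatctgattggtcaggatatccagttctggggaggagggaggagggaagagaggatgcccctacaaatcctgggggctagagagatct
Tnnc1, chr14:31208162-31208311, plus strand: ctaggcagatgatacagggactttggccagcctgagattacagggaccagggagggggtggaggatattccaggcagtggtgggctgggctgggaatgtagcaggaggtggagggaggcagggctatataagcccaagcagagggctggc
Tnnt1, chr7:4515976-4516125, minus strand: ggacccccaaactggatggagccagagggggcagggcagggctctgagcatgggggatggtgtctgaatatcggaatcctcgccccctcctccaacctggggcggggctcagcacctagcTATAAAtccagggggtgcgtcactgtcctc
Myl3, chr9:110763528-110763677, plus strand: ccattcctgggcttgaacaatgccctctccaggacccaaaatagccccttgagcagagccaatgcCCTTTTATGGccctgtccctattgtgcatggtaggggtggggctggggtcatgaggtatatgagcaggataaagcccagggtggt
Myoz2, chr3:123034988-123035137, minus strand: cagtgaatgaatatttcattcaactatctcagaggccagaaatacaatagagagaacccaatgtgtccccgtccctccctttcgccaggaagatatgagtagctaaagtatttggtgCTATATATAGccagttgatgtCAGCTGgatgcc
Myh2, chr11:67170877-67171026, plus strand: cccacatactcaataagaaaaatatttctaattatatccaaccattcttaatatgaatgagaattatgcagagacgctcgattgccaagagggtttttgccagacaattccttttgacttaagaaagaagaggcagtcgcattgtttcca
Over the 41 windows of the sarcomere genes, 12 (29.3%) held the TATA box, compared with 13.6% of 32851 promoter windows of all genes. The E-box, the letters that MyoD and related factors of the muscle lineage can bind, was in 15 (36.6%) of the 41 windows and in 16.3% of all windows. MEF2 sites were in 6 (14.6%) and 3.19%, and CArG boxes, the motif of serum response factor, in 7 (17.1%) and 1.63%. The E-box was in 3 of the 6 windows of fast genes and in 7 of the 13 windows of slow genes. The CArG box was in 1 of 6 and 1 of 13. Windows of the same gene can overlap, so the same E-box of Tnni1 and the same CArG box of Ldb3 were counted more than once. The windows of Tnnc1 and Tnnc2 held none of the 4 motifs, and that of Myh2 held only a TATA box after the start. The windows of Myh3, Myh2, Myh1, Myh4 and Myh8 lie in this order on chromosome 11, from chr11:67078050 to chr11:67277173, where these genes form a cluster. These matches describe letters and are not evidence of binding.

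The question put to these genes was whether untreated diabetes, or liraglutide given to diabetic mice, went with a change of the contractile genes or of their fast and slow isoforms. With the thresholds of the study for DEGs (adjusted p under 0.05 and fold change over 2), edgeR's quasi-likelihood test called 0 of the 45 genes in T1D against NGT, 0 in Lira against T1D and 0 in Lira against NGT, as it called 0% of all 13960 genes in each. At an unadjusted p under 0.05, 2 genes (4.44%) stood out in T1D against NGT, Myl4 and Myh2, compared with 3.95% of all genes. Myh2 was the only 1 of 45 (2.22%) in Lira against T1D, compared with 3.33% of all genes, and 0 of 45 were in Lira against NGT, compared with 0.781%. DESeq2 gave 0 adjusted calls among the 45 genes in each comparison, but its adjusted calls over all genes are not given here for comparison. At an unadjusted p under 0.05, DESeq2 gave 4, 1 and 0 genes, beside 697, 620 and 154 of all genes. The 3 mice of one group lay above or below all 3 of the other for 0 genes in T1D against NGT, where 3.52% of all genes were higher and 5.08% lower without overlap. In Lira against T1D, 1 gene, Myh2, was higher without overlap (3.74% of all genes) and 0 were lower (3.4%). In Lira against NGT, 0 were higher (2.49%) and 0 were lower (1.78%). By edgeR's test, the shares of called sarcomere genes were thus near those of all genes or below them, whereas the 4 genes of DESeq2 in T1D against NGT (Csrp3, Myh1, Myh2 and Myl4) stood beside 697 of 13960.

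The median log2 fold change of the 45 genes was -0.03 in T1D against NGT, 0.05 in Lira against T1D and 0.04 in Lira against NGT, beside medians of 0.02, 0.04 and 0.04 over all tested genes. In T1D against NGT, 20 genes had a positive and 25 a negative log2 fold change, but with library size in place of TMM scaling the split was 27 and 18. Scaling to 22 genes of muscle fibers that are not among the 45, such as Ckm and Atp2a1, gave 31 and 14 and moved the median of all genes to 0.25. In Lira against T1D the split was 23 and 22, and it became 20 and 25 by library size and 15 and 30 by the muscle fiber genes, with a median of all genes of -0.15. With these scalings the share of all genes above 0 also moved from 52.1% to 62 and 78.5% in T1D against NGT. With DESeq2 the split of the 45 genes was 21 and 24 in T1D against NGT, and in Lira against NGT it was 26 and 19, and 29 and 16 by the muscle fiber genes. The median SE of a log2 fold change was 0.506 over the 45 genes, and fold changes ranged from -1.42 to 1.75, from -0.84 to 1.56 and from -0.62 to 0.91 in the 3 comparisons. The lowest adjusted p of a sarcomere gene was 0.977, 0.978 and 0.999 by edgeR's quasi-likelihood test.

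**Figure D1:**
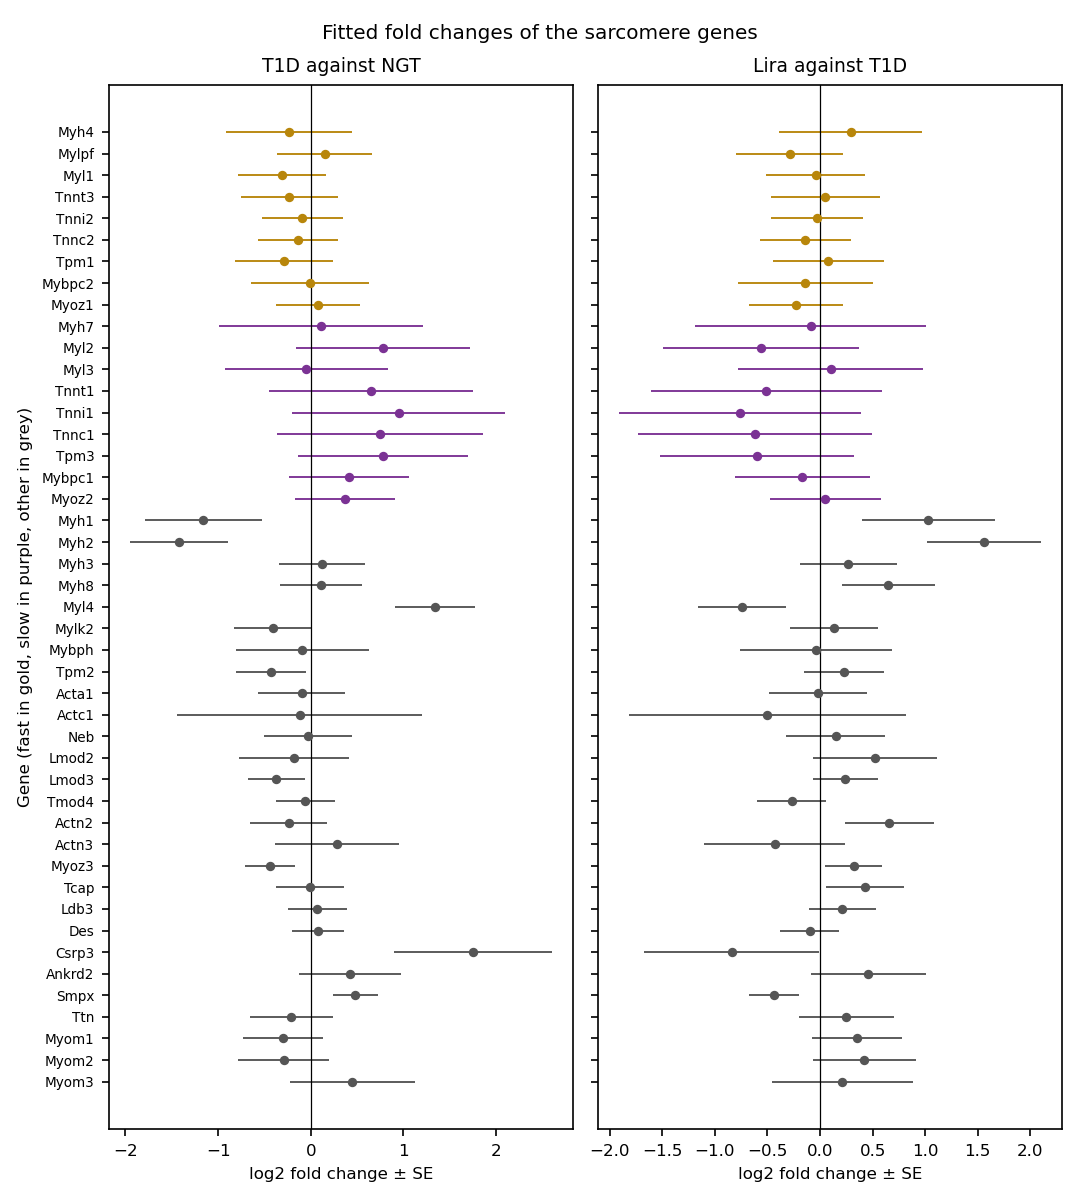
Fitted log2 fold change of each of the 45 genes with its SE, for T1D against NGT (left) and Lira against T1D (right), with the 9 fast genes of the pairs in gold, the 9 slow genes in purple and the others in grey. Myl4, Csrp3, Myh1 and Myh2 lie farthest from 0 on the left, between -1.42 and 1.75, and Actc1 and the slow genes Myh7, Tnnt1, Tnni1 and Tnnc1 carry the widest error bars.

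The heavy chains of myosin, the motor proteins of the thick filament, were dominated by Myh4 (gene number 17884), the chain of the fastest fibers. Per length, Myh4 made up 62.5, 70 and 89.3% of the summed FPKM of the 4 adult heavy chains in NGT mice 1 to 3, 62.9, 83.2 and 93.3% in T1D mice, and 85.3, 70.8 and 75.5% in Lira mice. The Myh4 share was highest in T1D mouse 3 and lowest in NGT mouse 1, and the groups overlapped. Its mean was 73.9% ± 13.9 (SD, n = 3) in NGT, 79.8% ± 15.5 in T1D and 77.2% ± 7.38 in Lira. The differences, 5.87 percentage points for T1D against NGT and -2.61 for Lira against T1D, were within the spread between mice (exact two-sided permutation p = 0.7 and 0.9, where 3 against 3 mice allow no p under 0.1). Without T1D mouse 3 they turned to -0.902 and 4.17, and without T1D mouse 1 they were 14.3 and -11.1. As counts, Myh4 was at 20692, 44953 and 59079 CPM (counts scaled to library size with TMM factors) in NGT mice, 11153, 42055 and 53140 CPM in T1D mice and 55211, 46320 and 28487 CPM in Lira mice. It was lowest in T1D mouse 1.

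Myh2 (gene number 17882), the heavy chain of fast oxidative fibers, had the lowest values in the diabetic mice that received saline. Its level was 4148, 5668 and 1363 CPM in NGT mice 1 to 3, 1407, 1702 and 1060 CPM in T1D mice, and 3921, 5826 and 2557 CPM in Lira mice. All 3 T1D mice lay below all 3 Lira mice, whereas NGT mouse 3 lay among the T1D mice. The means were 3726 ± 2183 (SD, n = 3) in NGT, 1389 ± 321 in T1D and 4101 ± 1642 in Lira. The log2 fold change was -1.42 (SE 0.53) in T1D against NGT, with an adjusted p = 0.977 by edgeR's quasi-likelihood test, and 1.56 (SE 0.54) in Lira against T1D, with an adjusted p = 0.978 by the same test. The adjusted p of Myh2 stayed between 0.18 and 1.0 under the alternatives in T1D against NGT and between 0.745 and 1.0 in Lira against T1D. Scaled to the muscle fiber genes, the log2 fold changes of Myh2 were -1.22 and 1.23, and neither had an unadjusted p under 0.05. The unadjusted p also went above 0.05 in T1D against NGT without NGT mouse 1 (-1.34), NGT mouse 2 (-0.99), T1D mouse 1 (-1.43) or T1D mouse 3 (-1.26), and in Lira against T1D without T1D mouse 3 (1.40) or Lira mouse 2 (1.22). By limma on log2(FPKM + 1), the log2 fold change in T1D against NGT was -1.14, with an unadjusted p of 0.0731. The unadjusted p in Lira against T1D stayed under 0.05 by limma. In Lira against NGT, the log2 fold change of Myh2 was 0.14 (SE 0.52) by edgeR.

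Myh1 (gene number 17879), the chain of fibers between those of Myh2 and Myh4 in speed, was at 7762, 10532 and 5551 CPM in NGT mice, 2650, 6567 and 1419 CPM in T1D mice and 4953, 12163 and 4640 CPM in Lira mice. T1D mice 1 and 3 were the lowest of the 9, and T1D mouse 2 lay among the others. The log2 fold change of Myh1 was -1.16 (SE 0.63, adjusted p = 0.977 by edgeR) in T1D against NGT and 1.03 (SE 0.63, adjusted p = 0.978 by edgeR) in Lira against T1D. With the replicate number as a block, a pairing inferred from these data, Myh1 was at -1.4 in T1D against NGT. It had an unadjusted p under 0.05 and an adjusted p of 0.865 by edgeR, within a range of 0.229 to 1.0 over the alternatives. Without T1D mouse 2 the log2 fold change of Myh1 was -1.96 in T1D against NGT and 1.82 in Lira against T1D, and without T1D mouse 3 it was -0.79 and 0.65. Without Lira mouse 2, Myh1 was at 0.44 in Lira against T1D. Of the heavy chain FPKM, Myh1 took 23.5, 16.4 and 8.42% in NGT mice, 15, 13 and 2.5% in T1D mice and 7.67, 18.7 and 12.3% in Lira mice. Myh2 took 12.4, 8.75 and 2.05%, 7.87, 3.34 and 1.85%, and 6.01, 8.84 and 6.72%. Within each of the 3 replicate numbers, the T1D mouse had a lower Myh1 share, a lower Myh2 share and a higher Myh4 share than the NGT mouse, which gives an exact two-sided p of 0.25 for each, the smallest that 3 pairs allow. These shares are parts of the same total, so they are not separate results, and the pairing was inferred from these same libraries. Without regard to the numbers, the exact permutation p was 0.4, 0.4 and 0.7.

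Myh7 (gene number 140781), the slow heavy chain, was at 523, 3132 and 136 CPM in NGT mice, 2539, 242 and 1319 CPM in T1D mice and 674, 1103 and 2081 CPM in Lira mice. The 3 groups overlapped, with the highest level in NGT mouse 2 and the lowest in NGT mouse 3, and the log2 fold changes were 0.11 (SE 1.1) in T1D against NGT and -0.09 (SE 1.1) in Lira against T1D. Of the heavy chain FPKM, Myh7 took 1.57, 4.86 and 0.205% in NGT mice, 14.3, 0.476 and 2.31% in T1D mice, and 1.04, 1.68 and 5.49% in Lira mice. The share of T1D mouse 1 was the highest of the 9. The embryonic chain Myh3 and the perinatal chain Myh8, which mark developing and regenerating fibers, were near the bottom of the range. Myh3 was between 2.69 and 11.8 CPM and Myh8 between 2.06 and 7.24 CPM over the 9 mice, compared with 0.163 to 0.237 CPM for 3 counts. Myh8 had the lowest p of the 45 genes in Lira against NGT, at 3.81, 2.71 and 2.06 CPM in NGT mice and 5.07, 7.24 and 2.35 CPM in Lira mice, with a log2 fold change of 0.77 (SE 0.45, adjusted p = 0.999 by edgeR). Its T1D mice were at 2.5, 3.73 and 3.07 CPM. Lira mice 1 and 2 were the highest and Lira mouse 3 lay among the other groups, and without Lira mouse 2 the log2 fold change was 0.37. The heavy chain genes are close copies of each other. The counts of Myh1, Myh2, Myh4, Myh7 and Myh8 were not whole numbers in any of the 9 libraries, and how reads shared by similar genes were counted is not given in the sources used here, so the division among heavy chains is uncertain.

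**Figure D2:**
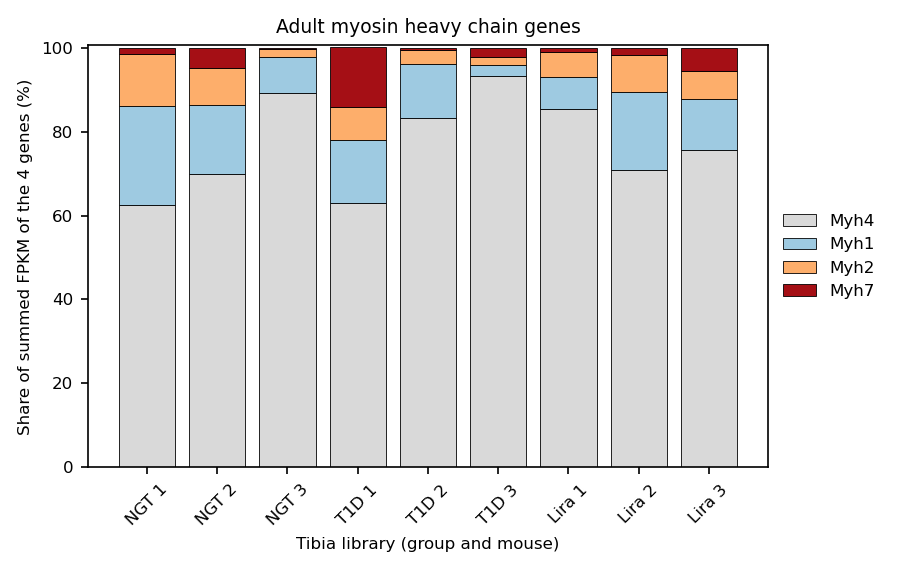
Share of the summed FPKM of Myh4, Myh1, Myh2 and Myh7 in each tibia library, as stacked bars from 0 to 100%. Myh4 makes up 62.5 to 93.3% of each bar, and the slow chain Myh7 is widest in T1D mouse 1, at 14.3%.

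Among the myosin light chains, which stiffen and regulate the myosin head, Myl4 (gene number 17896) had the lowest p of all 45 genes in T1D against NGT. Myl4 is the light chain of the embryonic muscle and of the heart atria. It was at 4.76, 7.81 and 8.39 CPM in NGT mice, 23.7, 21.4 and 7.87 CPM in T1D mice and 12.3, 7.55 and 11.7 CPM in Lira mice. T1D mice 1 and 2 were the highest of the 9, and T1D mouse 3 lay within the range of NGT. The log2 fold change was 1.34 (SE 0.43, adjusted p = 0.977 by edgeR) in T1D against NGT, and -0.74 (SE 0.42, adjusted p = 0.978 by edgeR) in Lira against T1D. In T1D against NGT, leaving out both T1D mouse 1 and Lira mouse 3 gave 1.05 for Myl4, with an unadjusted p no longer under 0.05. Myl4 is a rare transcript here, under 30 CPM in every library.

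The regulatory light chains Mylpf (fast) and Myl2 (slow) and the essential light chains Myl1 (fast) and Myl3 (slow) split by fiber type. Mylpf was at 3951, 6527 and 10080 CPM in NGT mice, 3541, 7719 and 11592 CPM in T1D mice and 6940, 6895 and 4888 CPM in Lira mice. Myl2 was at 250, 818 and 71.6 CPM in NGT mice, 1333, 141 and 481 CPM in T1D mice and 320, 332 and 670 CPM in Lira mice. The mouse with the most Myl2, T1D mouse 1, had the least Mylpf. Myl1 was at 4561, 7450 and 12082 CPM, 3652, 7815 and 8012 CPM, and 7590, 6523 and 4821 CPM in the NGT, T1D and Lira mice. Myl3 was at 349, 762 and 94.6 CPM, 745, 57.7 and 359 CPM, and 310, 482 and 450 CPM. Here too NGT mouse 3 and T1D mouse 2 were the lowest for the slow gene, and the groups overlapped for all 4 genes. The log2 fold changes in T1D against NGT were 0.15 (SE 0.51) for Mylpf, 0.78 (SE 0.94) for Myl2, -0.31 (SE 0.47) for Myl1 and -0.05 (SE 0.88) for Myl3. The kinase of the regulatory light chain, Mylk2, was between 469 and 1465 CPM and was lowest in T1D mouse 1.

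Myosin-binding protein C, which tethers the heads to the thick filament, followed the fiber types less closely. Its fast form Mybpc2 was at 2429, 5497 and 7583 CPM in NGT mice, 1479, 5443 and 8480 CPM in T1D mice and 6023, 4804 and 3115 CPM in Lira mice. Its slow form Mybpc1 was at 1973, 3104 and 1087 CPM in NGT mice, 1669, 5494 and 1011 CPM in T1D mice and 2504, 3151 and 1617 CPM in Lira mice. Mybpc1 was highest in T1D mouse 2, where most other slow genes were near their lowest level. Mybph, the related protein H, was between 80.7 and 504 CPM. None of the 3 genes had an unadjusted p under 0.05 in a comparison by edgeR's quasi-likelihood test.

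The troponins of the thin filament come in full sets of fast and slow genes. Troponin T binds tropomyosin, troponin I inhibits the pull at rest, and troponin C binds calcium. Slow Tnnt1 was at 199, 990 and 60.7 CPM in NGT mice, 1408, 88.7 and 465 CPM in T1D mice and 283, 342 and 754 CPM in Lira mice. Slow Tnni1 was at 75.1, 400 and 22.4 CPM, 684, 41.6 and 234 CPM, and 85.1, 144 and 338 CPM. Slow Tnnc1 was at 121, 595 and 36.7 CPM, 938, 66.7 and 258 CPM, and 140, 207 and 476 CPM. All 3 slow troponins were highest in T1D mouse 1, then in NGT mouse 2, and lowest in NGT mouse 3, and the range from the lowest to the highest mouse was 23.2-fold for Tnnt1, 30.5-fold for Tnni1 and 25.6-fold for Tnnc1. The fast troponins ranged far less. Tnnt3 was at 14481, 23422 and 30538 CPM in NGT mice, 9514, 24658 and 24236 CPM in T1D mice and 24386, 22843 and 13302 CPM in Lira mice. Tnni2 was at 4694, 7086 and 9100 CPM, 3566, 8020 and 7980 CPM, and 7382, 7395 and 4376 CPM. Tnnc2 was at 4680, 7080 and 10361 CPM, 3838, 7765 and 8423 CPM, and 6663, 6880 and 4589 CPM. Each was lowest in T1D mouse 1 and highest in NGT mouse 3, over ranges of 3.21-, 2.55- and 2.7-fold. The log2 fold changes of the 6 troponins in T1D against NGT lay between -0.23 and 0.95, and in Lira against T1D between -0.76 and 0.05, with 0 genes at an unadjusted p under 0.05 in edgeR's test.

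Tropomyosin, the strand that troponin moves over the myosin sites of actin, was measured per gene, not per isoform. Tpm1, counted here as fast, was at 10023, 15238 and 25804 CPM in NGT mice, 6354, 15831 and 19700 CPM in T1D mice and 16554, 16079 and 11779 CPM in Lira mice. Tpm3, whose muscle form is slow, was at 319, 1047 and 116 CPM, 1653, 197 and 704 CPM, and 302, 414 and 968 CPM. As with the slow troponins, T1D mouse 1 was the highest and NGT mouse 3 the lowest for Tpm3, a range of 14.2-fold. Both genes also have forms in cells other than muscle. Tpm2, used in fast and slow fibers, ranged 2.19-fold, from 5022 to 11013 CPM.

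Skeletal alpha-actin, Acta1, the main protein of the thin filament, was at 20107, 37510 and 36459 CPM in NGT mice, 24078, 22292 and 41625 CPM in T1D mice and 29832, 35204 and 21875 CPM in Lira mice. Its log2 fold change was -0.10 (SE 0.47) in T1D against NGT and -0.02 (SE 0.47) in Lira against T1D, and the groups overlapped. Actc1, the cardiac alpha-actin, which is also made in developing skeletal fibers, ranged more widely than any other of the 45 genes, 47.3-fold, from 35.1 CPM in T1D mouse 2 to 1660 CPM in T1D mouse 3. It was at 134, 505 and 1279 CPM in NGT mice, 65.4 CPM in T1D mouse 1, and 649, 347 and 249 CPM in Lira mice. The extremes of Actc1 thus both lay in the T1D group. Of 6 heart muscle markers, 5 were in the table, and they summed to 0.633 to 10.8 CPM over the 9 mice. Myh6, the heart alpha-myosin, was at 1.59, 10.3 and 0.0792 CPM in NGT mice, 3.53, 2.68 and 4.2 CPM in T1D mice and 3.57, 6 and 2.98 CPM in Lira mice. It was lowest in NGT mouse 3 and highest in NGT mouse 2. Myl7, the atrial light chain, was at 0 in all mice but T1D mouse 2, at 0.0655 CPM.

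Nebulin (Neb), which spans the thin filament, was at 5019, 8307 and 8127 CPM in NGT mice, 3013, 8705 and 9289 CPM in T1D mice and 8853, 8794 and 5650 CPM in Lira mice. T1D mouse 1 was the lowest, and the log2 fold change was -0.03 (SE 0.47) in T1D against NGT. The leiomodins Lmod2 and Lmod3, which start filaments, and the capping protein Tmod4 were between 125 and 746, 90.9 and 211, and 190 and 424 CPM.

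The Z-disc anchors thin filaments of neighbouring sarcomeres, and several of its proteins respond to stretch. Csrp3 (gene number 13009), a stretch-responsive protein of the Z-disc, was at 77.3, 155 and 33.1 CPM in NGT mice, 621, 226 and 43.7 CPM in T1D mice and 215, 129 and 155 CPM in Lira mice. T1D mouse 1 was the highest of the 9 and T1D mouse 2 the next, whereas T1D mouse 3 lay within the range of NGT. The log2 fold change of 1.75 (SE 0.85, adjusted p = 0.977 by edgeR) in T1D against NGT was the largest of the 45 genes, and without T1D mouse 1 it was 0.61. Relative to Acta1 in the same library, a ratio chosen after the values were seen, log2 of the Csrp3 FPKM was -7.28, -7.17 and -9.36 in NGT mice, -4.53, -5.87 and -9.15 in T1D mice and -6.37, -7.34 and -6.40 in Lira mice. Each T1D mouse was above the NGT mouse of its number on that scale, with a mean difference of 1.42 (exact p = 0.25 over the 3 pairs, and exact permutation p = 0.4 without pairs).

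Smpx, a small protein of the costamere and Z-disc, was at 177, 249 and 244 CPM in NGT mice, 292, 410 and 233 CPM in T1D mice and 244, 237 and 210 CPM in Lira mice. T1D mice 1 and 2 were the highest, and T1D mouse 3 lay within the other groups. Its log2 fold change was 0.48 (SE 0.24, adjusted p = 0.977 by edgeR) in T1D against NGT and -0.44 (SE 0.24, adjusted p = 0.978 by edgeR) in Lira against T1D. Without T1D mouse 2, Smpx was at 0.23 and -0.20. Ankrd2, a stretch-responsive ankyrin repeat protein found mainly in slow fibers, was at 202, 357 and 112 CPM in NGT mice, 485, 267 and 143 CPM in T1D mice and 460, 540 and 227 CPM in Lira mice. Its log2 fold change was 0.87 (SE 0.56, adjusted p = 0.999 by edgeR) in Lira against NGT. With the replicate number as a block it was 0.91, although the mice of these groups were not taken as pairs. Without NGT mouse 3 it was 0.55, and without NGT mouse 2 it was 1.38. NGT mouse 3 and T1D mouse 3 were the lowest, and Lira mice 1 and 2 were above all NGT mice. Actn2, the alpha-actinin of all fibers, was at 1190, 1838 and 646 CPM in NGT mice, 1140, 1104 and 877 CPM in T1D mice and 1555, 2324 and 1062 CPM in Lira mice. Its T1D mice lay close together, below Lira mice 1 and 2, with a log2 fold change of 0.66 (SE 0.42, adjusted p = 0.978 by edgeR) in Lira against T1D. Without Lira mouse 2, Actn2 was at 0.33, and scaled to the muscle fiber genes it was at 0.31.

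**Figure D3:**
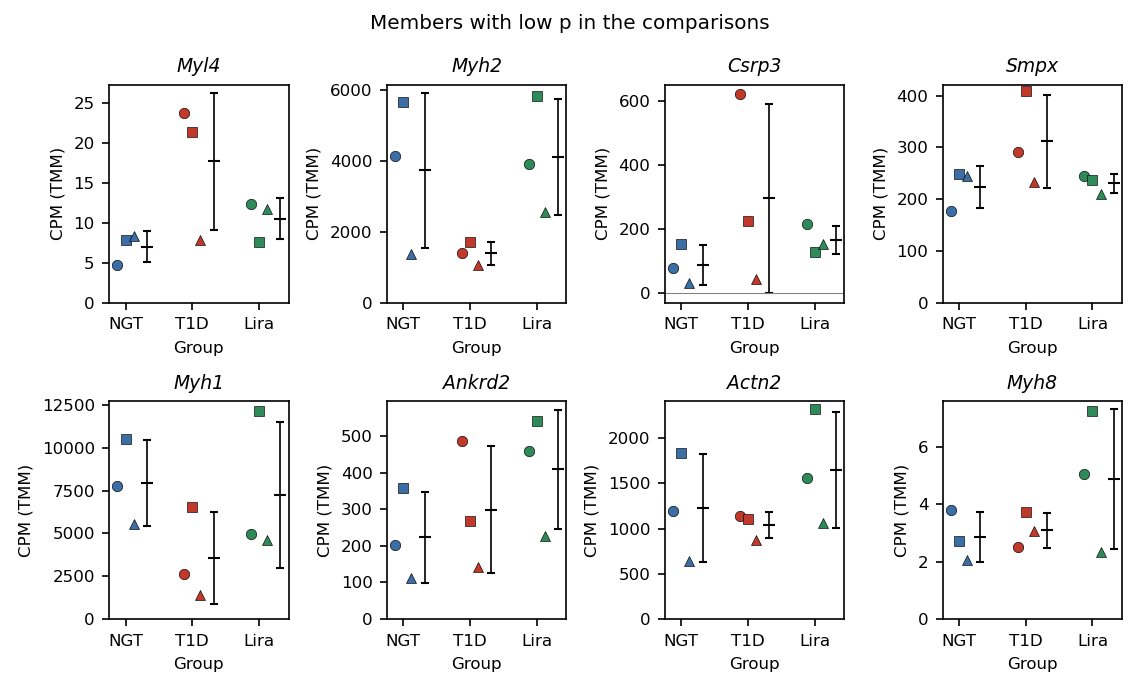
CPM of 8 genes with a low p in a comparison, by group, with a circle, square and triangle for mice 1, 2 and 3, and the mean ± SD (n = 3) as a black bar. The 3 T1D mice of Myh2 (1060 to 1702 CPM) lie below the 3 Lira mice (2557 to 5826 CPM), and in the panels of Myl4, Csrp3 and Smpx, T1D mice 1 and 2 lie above T1D mouse 3.

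The fast alpha-actinin Actn3, which lies in fast glycolytic fibers, ranged from 2578 CPM in T1D mouse 1 to 17559 CPM in T1D mouse 3. Myoz1, the calsarcin of fast fibers, was at 1078, 1835 and 2579 CPM in NGT mice, 941, 2314 and 2535 CPM in T1D mice and 2039, 1691 and 1195 CPM in Lira mice. Myoz2, the calsarcin of slow fibers, was at 183, 363 and 70.6 CPM, 407, 168 and 220 CPM, and 268, 293 and 261 CPM. These followed the fast and the slow genes, with T1D mouse 1 lowest for Myoz1 and highest for Myoz2. Tcap, which caps titin at the Z-disc, was at 944, 1374 and 1051 CPM in NGT mice, 809, 1413 and 1130 CPM in T1D mice and 2230, 1404 and 888 CPM in Lira mice, with Lira mouse 1 the highest (log2 fold change 0.42, SE 0.37, adjusted p = 0.999 by edgeR in Lira against NGT, and 0.03 without Lira mouse 1). Desmin (Des), the intermediate filament that links Z-discs, varied least of the 45 genes, 1.54-fold, from 3089 to 4756 CPM. Ldb3, a PDZ protein of the Z-disc, was between 1616 and 3512 CPM and Myoz3 between 94.8 and 200 CPM.

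Titin (Ttn), the spring from the Z-disc to the M-band, was at 9507, 17116 and 14572 CPM in NGT mice, 6304, 13837 and 15517 CPM in T1D mice and 15502, 16186 and 10808 CPM in Lira mice. T1D mouse 1 was the lowest, and the log2 fold change was -0.21 (SE 0.45) in T1D against NGT and 0.25 (SE 0.45) in Lira against T1D. The M-band proteins Myom1 and Myom2 were also lowest in T1D mouse 1, at 839 and 555 CPM, beside highest values of 2625 and 2211 CPM in Lira mice 1 and 2. Myom3, the myomesin of slow and intermediate fibers, was at 72.1, 161 and 19.1 CPM in NGT mice, 176, 114 and 54.5 CPM in T1D mice and 111, 133 and 154 CPM in Lira mice, with T1D mouse 1 the highest and NGT mouse 3 the lowest, as for most slow genes.

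Within groups the pooled SD of log2 CPM had a median of 0.66 over the 45 genes, compared with 0.31 over all tested genes, whose 95th percentile was 1.14. It was 0.78 to 1.76, with a median of 1.42, for the 9 slow genes of the pairs, and 0.52 to 0.94, with a median of 0.63, for the 9 fast genes. The slow genes were highest in T1D mouse 1 for 6 of 9, in NGT mouse 2 for 2 (Myh7 and Myl3) and in T1D mouse 2 for 1 (Mybpc1). NGT mouse 2 was among the 3 highest mice for 9 of the 9 slow genes. They were lowest in NGT mouse 3 for 7 of 9, in T1D mouse 2 for 1 (Myl3) and in T1D mouse 3 for 1 (Mybpc1). The fast genes were lowest in T1D mouse 1 for 9 of 9, and highest in NGT mouse 3 for 7 and in T1D mouse 3 for 2 (Mylpf and Mybpc2). NGT mouse 1 and Lira mouse 3 were each among the 3 lowest mice for 9 of the 9 fast genes. These 3 mice with low fast genes also had the lowest summed CPM of the 22 other muscle fiber genes, 56907 in NGT mouse 1, 44981 in T1D mouse 1 and 59684 in Lira mouse 3, compared with 87628 to 116038 in the other 6.

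**Figure D4:**
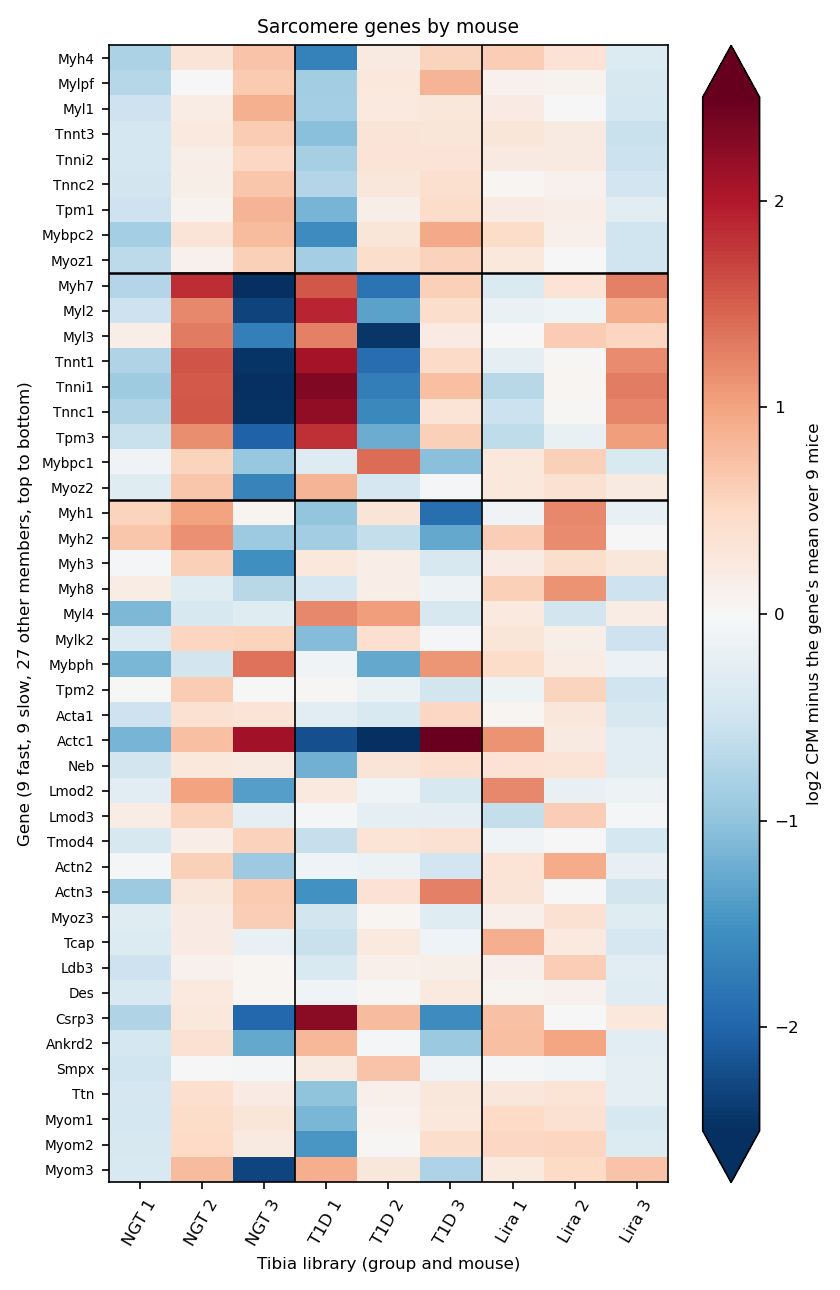
log2 CPM of each of the 45 genes in each tibia library minus the mean of that gene over the 9 mice (red above, blue below, color limits at -2.5 and 2.5), with 9 fast genes, 9 slow genes and 27 other genes from top to bottom. The slow genes are red in NGT mouse 2, T1D mouse 1 and Lira mouse 3 and blue in NGT mouse 3 and T1D mouse 2, and Mybpc1 departs from this order.

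A fast gene set against a slow gene within a library is nearly free of the scaling of that library. The fast-minus-slow index, the mean over the 9 pairs of log2(CPM + 1) of the fast gene minus that of the slow gene, was 4.24, 3.27 and 7.14 in NGT mice 1 to 3, 1.78, 5.87 and 4.62 in T1D mice and 4.86, 4.30 and 3.10 in Lira mice. T1D mouse 1 had the lowest and NGT mouse 3 the highest index, and the groups overlapped. The means were 4.88 ± 2.01 (SD, n = 3) in NGT, 4.09 ± 2.10 in T1D and 4.09 ± 0.90 in Lira. The index differed by -0.79 between T1D and NGT (exact two-sided permutation p = 0.8), by 0.00 between Lira and T1D (p = 1.0 by the exact permutation test) and by -0.80 between Lira and NGT (exact permutation p = 0.7). Without T1D mouse 1 the difference between T1D and NGT was 0.36, and without NGT mouse 3 it was 0.33, so either mouse alone set its direction. Each mean of 3 mice thus rested on a spread in log2 that was larger than the difference.

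Single pairs shared the lowest mouse of the index, and most shared the highest, while the order of the others varied. Log2 of the FPKM ratio of Tnni2 to Tnni1 was 6.33, 4.48 and 9.02 in NGT mice, 2.77, 7.93 and 5.45 in T1D mice and 6.78, 6.05 and 4.06 in Lira mice. For Tnnc2 to Tnnc1 it was 5.29, 3.59 and 8.16, then 2.05, 6.89 and 5.05, then 5.59, 5.08 and 3.29 in the same order of groups. For Myh4 to Myh7 it was 5.31, 3.85 and 8.77, then 2.14, 7.45 and 5.34, then 6.36, 5.40 and 3.78. The ratio was lowest in T1D mouse 1 in 9 of the 9 pairs, and highest in NGT mouse 3 in 7, in T1D mouse 2 in 1 (Myl1 to Myl3) and in T1D mouse 3 in 1 (Mybpc2 to Mybpc1). The fast gene exceeded the slow gene per length in every mouse and pair except Mybpc2 to Mybpc1 in T1D mouse 1, at -0.06. The indices, shares and ratios gave 54 comparisons between groups, each with an adjusted p of 1.0 by the exact permutation test, but with a smallest possible p of 0.1 none could have passed.

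**Figure D5:**
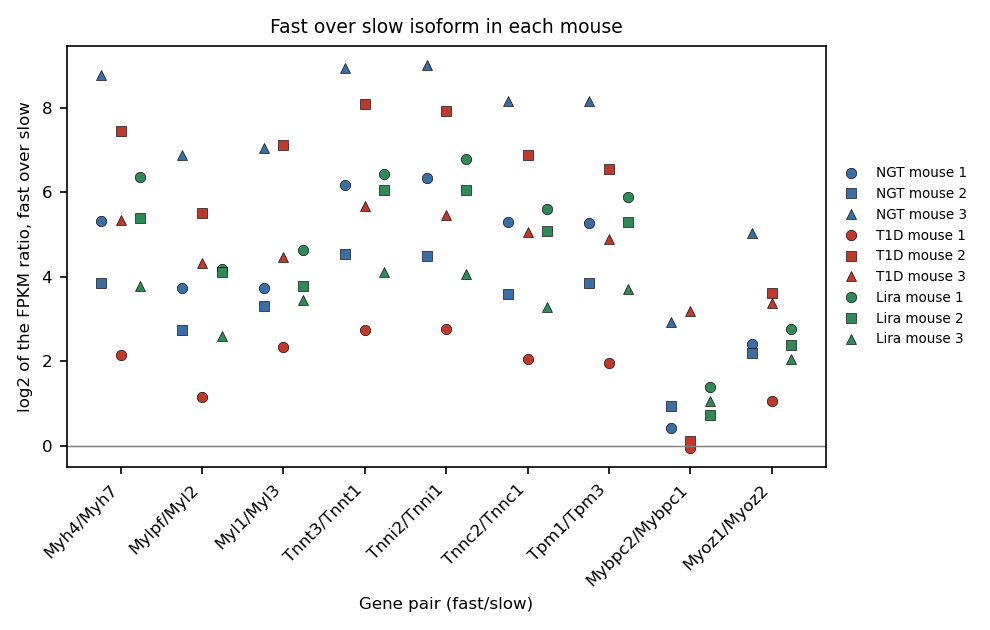
Log2 of the FPKM ratio of the fast to the slow gene for the 9 pairs, with a circle, square and triangle for mice 1, 2 and 3 of each group in blue (NGT), red (T1D) and green (Lira). T1D mouse 1 is the lowest point of all 9 pairs, and NGT mouse 3 is the highest in 7.

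Over the 9 slow genes the median log2 fold change was 0.65 in T1D against NGT, with 8 above 0 and 1 below, and over the 9 fast genes it was -0.14, with 2 above and 7 below. Scaled to the muscle fiber genes, the fast genes were at 0.06 with 5 above 0 and 4 below, and the slow genes at 1.40. Without T1D mouse 1, the medians became -0.29 for the slow genes, with 1 above 0, and 0.20 for the fast genes, with 8 above 0. In Lira against T1D, the medians were -0.51 for the slow and -0.04 for the fast genes, and without T1D mouse 1 they were 0.51 and -0.33. In Lira against NGT they were 0.18 and -0.16, and without NGT mouse 3 they were -0.33 and 0.17. In each of these settings, 0 of the 18 genes had an unadjusted p under 0.05 by edgeR. Of all genes, 552 did in T1D against NGT, 147 scaled to the muscle fiber genes and 413 without T1D mouse 1. In Lira against T1D, 465 of all genes did, and 325 without T1D mouse 1. For Lira against NGT these counts were 109, and 59 without NGT mouse 3. In Lira against T1D, the median of the fast genes was 0.12 without Lira mouse 3. For the fast and the slow genes, leaving out 1 mouse thus changed the sign of the median in each comparison.

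Markers of other cell types moved between the same libraries. T1D mouse 1 and Lira mouse 3 stood apart from the rest, with 476 and 441 genes at more than 2 times their level in every other library, compared with 2 to 83 in the other 7. The 13 osteoblast and osteocyte markers (Col1a1, Col1a2 and Spp1 the most abundant) summed to 5827 CPM in T1D mouse 1 and to 210 to 1456 CPM elsewhere. The lowest of these sums was in NGT mouse 2, and Lira mouse 3 was at 1383 CPM. NGT mouse 2, T1D mouse 1 and Lira mouse 3 were among the 3 highest mice for 9, 8 and 6 of the 9 slow genes. The 8 tendon markers were at 836 CPM in T1D mouse 1, 772 in NGT mouse 1 and 149 to 533 in the others, the 8 adipocyte markers at 1955 in T1D mouse 1 and 223 to 1259 in the others, and the 10 smooth muscle markers at 615 in T1D mouse 1 and 858 to 1340 in the others. Most of the last sum was Synm, which skeletal muscle also makes, and without it, as chosen after the values were seen, the other 9 were at 259 CPM in T1D mouse 1 and 187 to 321 CPM in the others. The erythroid and neutrophil lists were highest in Lira mouse 3, at 30349 CPM (15 genes) and 6032 CPM (14 genes), beside 1027 to 20227 and 9.2 to 2783 CPM in the others. Of these lists, 0 genes passed the thresholds for DEGs by edgeR, and at an unadjusted p under 0.05 there were 2 of 13 osteoblast genes higher in T1D than in NGT (3.95% of all genes in either direction) and 2 of 10 smooth muscle genes lower in Lira than in T1D (3.33% of all genes in either direction). The part of these cell types in the values of the sarcomere genes was not tested.

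Other genes of the sarcomere were taken from a list of 57, of which 56 were in the table and 53 were tested. In T1D against NGT, 21 were above 0 and 32 below, and 0 passed the thresholds for DEGs by edgeR, with 3 of 53 at an unadjusted p under 0.05, compared with 3.95% of all genes. These, chosen after their values were seen, were Ankrd1 (higher), a stretch-responsive relative of Ankrd2, and Mylk4 and Igfn1 (lower). Ankrd1 was at 29.8, 10.9 and 12 CPM in NGT mice, 173, 66.5 and 15.7 CPM in T1D mice and 73.8, 28.3 and 21.2 CPM in Lira mice, so that T1D mouse 1 was the highest, as for Csrp3. In Lira against T1D, 35 were above 0 and 18 below, where 55.3% of all genes were above 0, and Igfn1 was the only 1 of 53 at an unadjusted p under 0.05, compared with 3.33% of all genes. The most abundant genes of the list were Cmya5, Xirp2 and Ankrd23. Of 19 tested genes that regulate muscle or its repair, 9 were above 0 and 10 below in T1D against NGT. Among them, 2 were lower at an unadjusted p under 0.05 by edgeR, Mef2c and Ppargc1a (3.95% of all genes in either direction). They were chosen after their values were seen, and 0 of the 19 passed the thresholds for DEGs by edgeR. Ppargc1a, a coactivator of the oxidative program of slow fibers, was at 70.3, 150 and 69.3 CPM in NGT mice, 19.6, 56.1 and 35.2 CPM in T1D mice and 87.9, 75.9 and 31.7 CPM in Lira mice. Its 3 T1D mice lay below its 3 NGT mice, as they did for 5.08% of all genes, and its adjusted p was 0.977 by edgeR.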

How the data were processed

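RNA-seq of 9 tibia libraries was analysed from the gene table that the authors deposited, which holds expected counts per gene, not normalized, and FPKM values scaled by the authors for gene length and library total. The aligner and counter are not given in the sources used here, and the submitters' processing notes list the build mm9, so no coordinates from the files are given. Of the count values, 30.2% were not whole. Every column was matched to a sample, with 0 left over.

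Rounded counts of genes that reached 10 counts in 3 or more libraries were tested, and library totals were 13086373 to 16528394, which sets the counting precision. R 4.3.3 with edgeR 4.0.16 (TMM, glmQLFit and glmQLFTest, 3 group means over all 9 libraries, Benjamini-Hochberg over all tested genes) was the main test in place of the ANOVA of the study. Per-mouse indices and shares were compared by exact permutation. The procedure was also run on simulated data, but the outcome is not given here. The numbers of the mice in NGT and T1D correlated across genes at r = 0.583, 0.647 and 0.283, each over 0.1, so they were taken as pairs. For Lira the lowest such value was -0.244, so its mice were not. The edgeR p-values set a difference between groups against the spread between mice within groups, with 3 mice in each group.

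Genes named in full were the 9 fast and slow pairs, the myosin heavy chains, Acta1, Ttn, Neb and the 5 genes of lowest p in each comparison. Actc1, Myom3, Myh6, Ankrd1 and Ppargc1a were added after their values were seen. The genes, lists and tests were chosen with earlier results of these data known. Alternatives were DESeq2 1.42.0, limma 3.58.1 on log2(FPKM + 1), other scalings, no filter, the groups compared alone, the replicate block and leaving out each mouse. Leaving out T1D mouse 1 together with Lira mouse 3, the block on 2 groups, and the ratios of Myh1 and Myh2 to Myh4 and of Csrp3 to Acta1 were added after seeing the data.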

Additional observations from a re-analysis of the deposited data

How the results depend on the processing

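Counts of DEGs among the 45 genes were 0 under every alternative run in each comparison. The counts of DEGs over all genes under the alternatives are not given here, so these counts have no background beside them. For the 5 genes of lowest p in each comparison, 225 of 225 values under the alternatives kept their direction, and none passed the adjusted threshold, while DESeq2 gave no adjusted p for Myl4 in T1D against NGT. Those genes were chosen by p in the same libraries that the alternatives reuse, so their kept direction is not separate evidence. The genes of the fast and slow pairs did not all keep their direction. The median over the 45 genes was -0.25 to 0.18 in T1D against NGT, -0.13 to 0.18 in Lira against T1D and -0.16 to 0.24 in Lira against NGT, and so changed sign in each. The counts at an unadjusted p under 0.05 varied with the setting. In T1D against NGT (2 genes) the count was 4 with DESeq2 (697 of all genes), 1 to 4 on leaving out 1 mouse (224 to 1007 of all genes), and 1 without both T1D mouse 1 and Lira mouse 3 (520). In Lira against T1D (1 gene) it was 2 by library size (350 of all genes), 0 scaled to the muscle fiber genes (111), 0 to 3 on leaving out 1 mouse (254 to 737), and 2 without both mice (496). In Lira against NGT (0 genes) it was 0 to 2 on leaving out 1 mouse (59 to 446 of all genes) and 3 without both mice (212).

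With a replicate block the counts were 3, 2 and 1, beside 752, 507 and 160 of all genes, and with the replicate block on only the 2 groups compared they were 4, 1 and 1, beside 1931, 258 and 96 of all genes. The block changed no adjusted call. Only in T1D against NGT were the numbers taken as pairs, by a rule applied to these data and not by the labels.

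The fast-minus-slow index ranged on leaving out 1 mouse from -1.69 to 0.36 in T1D against NGT, from -1.16 to 0.89 in Lira against T1D and from -1.60 to 0.33 in Lira against NGT, and it was 0.36 in T1D against NGT without both mice. The share of counts in the 45 genes ranged from -3.39 to 1.36, from -2.11 to 2.48 and from -2.82 to 0.814 percentage points. Without both mice it was 1.36, -0.549 and 0.814, and as a share of summed FPKM it was -0.136 in Lira against T1D. The Myh4 share ranged from -0.902 to 14.3, from -11.1 to 4.17 and from -2.45 to 11 percentage points. The cause was not tested. With 3 mice a group and a median SE of 0.506 on the log2 scale, changes of this size could not be resolved for most of these genes.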
